A study of Mus musculus with 10 samples.

Results

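The genes examined were 8 homeobox transcription factor genes of the craniofacial mesenchyme: *Alx1*, *Alx4*, *Prrx1*, *Prrx2*, *Six2*, *Barx1*, *Dlx1* and *Dlx2*. They were taken by gene symbol, and all 8 had a row among the 43346 genes of the count table. The libraries came from O9-1 cells, a mouse line derived from the cranial neural crest, grown on Matrigel in conditioned medium. There were 4 wildtype libraries, 3 libraries of Kat5 ko clones (Kat5/1, Kat5/2 and Kat5/3) and 3 libraries of Ep400 ko clones (Ep400/1, Ep400/2 and Ep400/3). Kat5 is the histone acetyltransferase and Ep400 the chromatin remodelling ATPase of the Tip60/Ep400 complex, and each was inactivated by CRISPR/Cas9. Each knockout library was a single clone raised from 1 sorted cell, whereas wildtype cells were not cloned. Kat5 ko clones carried insertions or deletions in every allele of the tetraploid line. Among the Ep400 ko clones, Ep400/1 had frameshifts in every allele, and Ep400/2 and Ep400/3 kept alleles with small in-frame deletions in the ATP binding site. The question was how the transcripts of these genes differed between each knockout and wildtype cells.

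Homeobox genes encode transcription factors that bind DNA, often at AT-rich sites, through a homeodomain. In the head, neural crest cells migrate into the facial prominences and pharyngeal arches, and combinations of homeobox factors give the resulting mesenchyme its regional identity before it forms bone, cartilage, teeth and connective tissue. Paired-type factors such as the Alx and Prrx proteins act in frontonasal and general skeletogenic mesenchyme. *Dlx* genes lie in convergently transcribed pairs and pattern the arches along the proximodistal axis, *Barx1* is known for molar tooth and joint mesenchyme, and *Six2* for frontonasal mesenchyme and for nephron progenitors of the kidney.

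In GRCm38 (mm10), *Prrx1* lies on the minus strand of chromosome 1 (163245119 to 163313710) and *Prrx2* on the plus strand of chromosome 2 (30834972 to 30881251). *Dlx1* (chromosome 2, 71528113 to 71533981, plus strand) and *Dlx2* (71543408 to 71546754, minus strand) face each other with 9.43 kb between their ends. *Barx1* lies on chromosome 13 (48662998 to 48666507, plus strand), *Six2* on chromosome 17 (85684277 to 85688274, minus strand), *Alx1* on chromosome 10 (102998707 to 103030215, minus strand) and *Alx4* on chromosome 2 (93642384 to 93681339, plus strand). RefSeq promoter sequences (GRCm38.p6, 250 bases before to 50 after the start) matched 6 of the 8 genes, all but *Alx1* and *Alx4*. The promoters of *Prrx2* and *Dlx1*, the genes that rose in Ep400 ko clones, of *Dlx2*, the neighbour of *Dlx1*, and of *Six2*, which gave almost no reads, are shown 5′ to 3′ on the strand of the gene with CG dinucleotides in capitals. They span chr2:30845117-30845416 for *Prrx2*, chr2:71529195-71529494 for *Dlx1*, chr2:71546705-71547004 for *Dlx2* and chr17:85688205-85688504 for *Six2*. The windows of *Prrx2* and *Dlx1* lie inside the gene spans given above, so that earlier annotated starts exist for both genes. Which start O9-1 cells use was not tested.
Prrx2: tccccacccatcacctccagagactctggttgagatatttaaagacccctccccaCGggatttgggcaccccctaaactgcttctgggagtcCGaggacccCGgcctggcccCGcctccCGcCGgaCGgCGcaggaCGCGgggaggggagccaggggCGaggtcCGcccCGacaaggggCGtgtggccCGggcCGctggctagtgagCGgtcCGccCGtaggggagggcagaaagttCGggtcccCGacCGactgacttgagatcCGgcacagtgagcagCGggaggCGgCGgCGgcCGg
Dlx1: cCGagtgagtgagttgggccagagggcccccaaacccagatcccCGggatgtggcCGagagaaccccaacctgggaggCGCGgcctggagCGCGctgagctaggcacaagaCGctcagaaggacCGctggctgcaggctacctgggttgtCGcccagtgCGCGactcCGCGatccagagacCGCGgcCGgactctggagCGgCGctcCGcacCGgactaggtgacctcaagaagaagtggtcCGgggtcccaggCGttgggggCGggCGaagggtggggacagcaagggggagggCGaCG
Dlx2: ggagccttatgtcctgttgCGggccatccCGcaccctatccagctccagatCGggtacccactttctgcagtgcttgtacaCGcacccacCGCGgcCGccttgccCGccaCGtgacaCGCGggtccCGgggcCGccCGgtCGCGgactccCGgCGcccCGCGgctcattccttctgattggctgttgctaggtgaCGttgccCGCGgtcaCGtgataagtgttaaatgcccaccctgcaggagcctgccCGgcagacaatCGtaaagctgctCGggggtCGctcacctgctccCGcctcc
Six2: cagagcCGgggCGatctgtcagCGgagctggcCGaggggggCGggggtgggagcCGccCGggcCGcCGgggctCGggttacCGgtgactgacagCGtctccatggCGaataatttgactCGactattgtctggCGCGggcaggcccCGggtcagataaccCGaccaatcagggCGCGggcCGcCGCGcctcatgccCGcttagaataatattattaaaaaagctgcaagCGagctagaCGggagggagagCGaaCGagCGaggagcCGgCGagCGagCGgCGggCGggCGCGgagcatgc
A promoter in the RefSeq table held a median of 7 CG dinucleotides (32851 promoters). Those shown held 28 (*Prrx2*), 27 (*Dlx1*), 29 (*Dlx2*) and 37 (*Six2*), and *Barx1* held 50. *Prrx1* held only 6, a number reached or passed by 56.4% of all promoters, against 14.2% for *Prrx2*, 15.5% for *Dlx1*, 12.9% for *Dlx2*, 5.58% for *Six2* and 0.855% for *Barx1*. The silent *Six2* and the transcribed *Dlx1* and *Dlx2* thus had CG-rich promoters alike, while *Prrx1*, with the highest transcript level, did not. The tetranucleotide TAAT, the core of many homeodomain sites, occurred 4 times on both strands together in the windows of *Prrx1* and of *Six2*, and was not found in those of *Prrx2*, *Barx1*, *Dlx1* and *Dlx2*. Of all promoters, 58% held it at least once.

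The reads counted on genes were 30968945 to 44776201 per library in wildtype, 32709984 to 48301792 in Kat5 ko and 32950540 to 41231337 in Ep400 ko. *Kat5* fell in Kat5 ko clones (log2-fold change −1.40 ± 0.17 SE, edgeR adjusted p = 0.0217) and *Ep400* in Ep400 ko clones (−1.44 ± 0.12 SE, edgeR adjusted p = 0.00121), with every clone below every wildtype library for its own gene. Of 14 neural crest markers, *Sox10* and *Foxd3* had no read in any of the 10 libraries, whereas *Twist1*, *Sox9*, *Snai1*, *Snai2* and *Cd44* were detected in all of them. The summed level of the 14 markers was 718 to 901 CPM (counts relative to the effective library size, in the usual unit) in wildtype, 893 to 1110 in Kat5 ko and 949 to 1040 in Ep400 ko. *Cd44* made up most of it, with means of 452, 634 and 551 CPM. *Ngfr* had group means of 0.0404 to 0.297 CPM, and *Thy1* had no read in any Kat5 ko clone. In Ep400 ko *Nt5e* was lower (log2-fold change −1.58, edgeR adjusted p = 0.0335). *Snai2* (0.86, edgeR adjusted p = 0.0451) and *Tfap2a* (1.37, edgeR adjusted p = 0.0223) were higher there. Kat5/1 stood apart from the other libraries. Its 7 smooth muscle markers summed to 758 CPM against 53.7 to 78.3 in wildtype and 19 to 95.8 in the other clones, mainly from *Acta2* and *Tagln*, and 2 of the 7 had no read there. When Kat5/1 was left out, 2651 genes passed the test between Kat5 ko and wildtype instead of 67. In bulk RNA, fewer cells that transcribe a gene and less RNA per cell cannot be told apart.

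*Alx1*, *Alx4* and *Six2* were too low to test in each comparison. *Alx4*, a paired-type factor of frontonasal and limb mesenchyme, had 0 counts in all 10 libraries. Its locus overlaps *Ext2* on the opposite strand, which had 2454 to 6446 counts per library. *Alx1*, needed for the frontonasal skeleton, had 1 count in Kat5/3, 3 counts in Ep400/2 and 0 in the other libraries. *Six2* had 1 count in wildtype 2 and 0 elsewhere. At these depths a count of 0 allows a level of up to 3 counts, or 0.0661 to 0.0988 CPM depending on the library, for counting error only. A lower level in either knockout was therefore not detectable for *Alx1*, *Alx4* and *Six2*, and no rise above a few reads was seen.

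The other 5 genes were transcribed in wildtype cells at very different levels. Per kilobase of exon, the wildtype mean was 2810 normalized counts for *Prrx1*, 1150 for *Prrx2*, 269 for *Dlx1*, 267 for *Dlx2* and 137 for *Barx1*, where normalized counts are counts scaled to a common library size. Among the 20525 genes with a read in wildtype, these are the percentiles 97.2, 91.7, 70.7, 70.5 and 60.5, and *Six2* sits at 3.88. *Prrx1* was above *Prrx2*, and *Prrx2* above *Dlx1* and *Dlx2*, in every wildtype library. *Dlx1* and *Dlx2* did not differ beyond their spread (218 to 339 and 216 to 345 per kilobase), and *Barx1* with 1.4 to 259 overlapped both of them. This order of *Prrx1*, *Prrx2* and the *Dlx* pair also held in the 3 Ep400 ko clones, whereas *Prrx2* with 519 lay below *Dlx1* with 635 and *Dlx2* with 695 in Kat5/1.

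**Figure D1:**
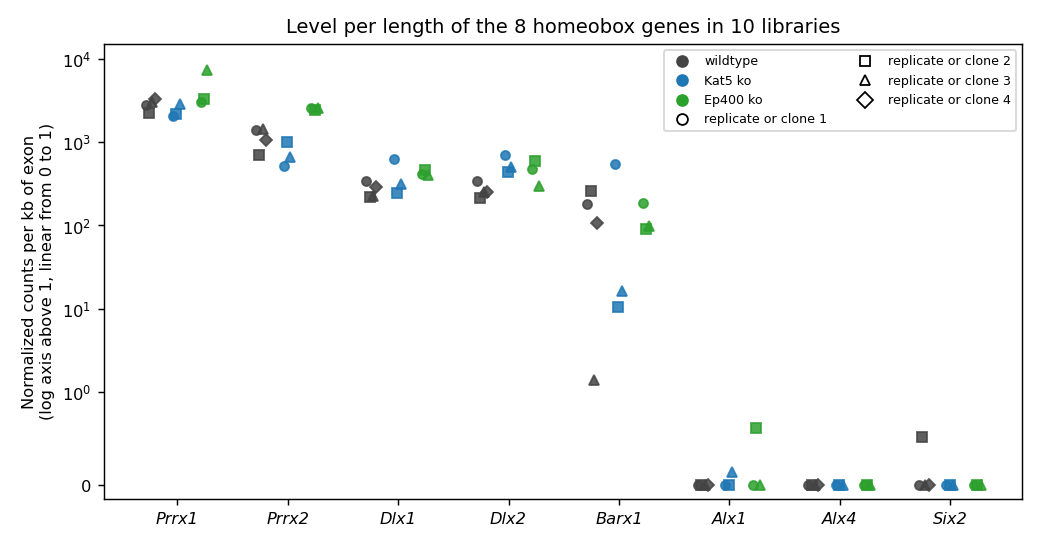
Normalized counts per kilobase of exon (vertical axis, logarithmic above 1 and linear from 0 to 1) of the 8 genes in the 10 libraries, with colours for groups and shapes for the replicate or clone. *Prrx1* and *Prrx2* lie highest, *Barx1* spans from 1.4 to 541, and *Alx1*, *Alx4* and *Six2* lie at or near 0.

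*Prrx2* was the member with the clearest difference. It encodes a paired-related factor of facial and limb mesenchyme that overlaps in function with *Prrx1*. Wildtype libraries 1 to 4 had 2745, 1356, 2833 and 2052 normalized counts, the Kat5 ko clones 1018, 1955 and 1296, and the Ep400 ko clones 5086, 4724 and 4976. All Ep400 ko clones lay far above all wildtype libraries and close to each other, at 226%, 210% and 222% of the wildtype mean. Of the Kat5 ko clones, Kat5/2 lay inside the wildtype range, and Kat5/1 and Kat5/3 lay below it. The mean was 2247 ± 689 (SD, n = 4) in wildtype, 1423 ± 481 (SD, n = 3) in Kat5 ko and 4929 ± 186 (SD, n = 3) in Ep400 ko. *Prrx2* rose 2.19-fold in Ep400 ko clones (log2-fold change 1.13 ± 0.24 SE, edgeR adjusted p = 0.0184) and was the 1 member that also met the limits for a differentially expressed gene (absolute log2-fold change of at least 1 and mean normalized count above 100). In Kat5 ko clones the log2-fold change was −0.69 ± 0.31 SE and did not pass (edgeR adjusted p = 0.227). Directly compared, *Prrx2* was 3.42-fold higher in Ep400 ko than in Kat5 ko clones (1.77 ± 0.26 SE, edgeR adjusted p = 0.0248).

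Single libraries mattered for these calls. Against wildtype, the rise of *Prrx2* in Ep400 ko passed in 6 of 7 fits that left out 1 library, with log2-fold changes of 0.95 to 1.25, and missed the threshold without wildtype 4 (edgeR adjusted p = 0.0614). Between the knockouts it passed in 3 of 6 such fits (1.58 to 2.06) and was lost without Kat5/3, Ep400/2 or Ep400/3 (edgeR adjusted p of 0.105, 0.0664 and 0.083).

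*Prrx1*, the paralog, encodes a factor that keeps mesenchymal progenitors undifferentiated and is a broad mesenchyme marker. It had 30470, 24520, 33690 and 35840 normalized counts in wildtype, 22710, 24170 and 31450 in Kat5 ko and 33190, 36300 and 81200 in Ep400 ko clones. Ep400/3 was high at 261% of the wildtype mean, whereas Ep400/1 lay inside and Ep400/2 just above the wildtype range. The means were 31130 ± 4930 (SD, n = 4), 26110 ± 4680 (SD, n = 3) and 50230 ± 26900 (SD, n = 3), and *Prrx1* passed the test in neither knockout. The log2-fold change was −0.29 ± 0.18 SE for Kat5 ko (edgeR adjusted p = 0.379) and 0.69 ± 0.32 SE for Ep400 ko (edgeR adjusted p = 0.17), and the latter was 0.15 without Ep400/3. All Ep400 ko clones were above all Kat5 ko clones, but this difference did not pass either (0.92 ± 0.38 SE, edgeR adjusted p = 0.141). Per kilobase, *Prrx1* exceeded *Prrx2* 1.97- to 3.2-fold in wildtype and 2.19- to 4.3-fold in Kat5 ko libraries, but only 1.16-fold in Ep400/1, and Ep400/2 was below the wildtype range too. Ep400/3, the clone with the high *Prrx1* level, stayed in the wildtype range at 2.89-fold.

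**Figure D2:**
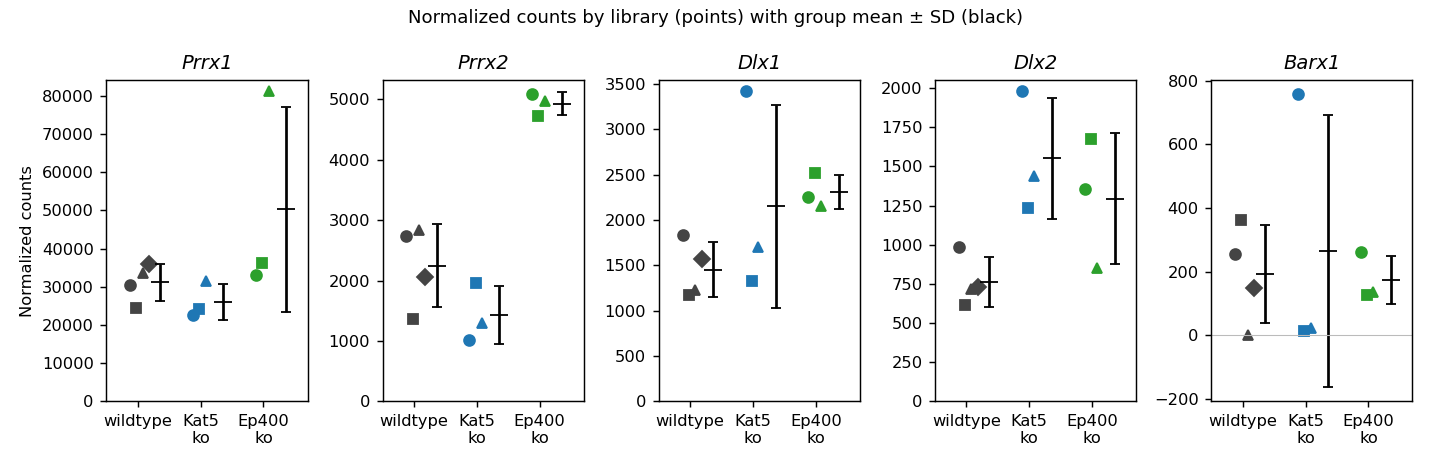
Normalized counts (vertical axis, 1 scale per panel) of the 5 tested genes in each library (coloured points, shape by replicate or clone) with the group mean and SD in black, for 4 wildtype, 3 Kat5 ko and 3 Ep400 ko libraries. The *Prrx2* values of Ep400 ko clones (4724 to 5086) lie above all other libraries, and single clones set the spread of *Prrx1* (Ep400/3 at 81200) and *Barx1* (Kat5/1 at 757), for which a bar of the SD reaches below 0.

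*Dlx1* and *Dlx2* encode distal-less homeodomain factors that share enhancers between the genes and act together in the proximal first arch. For *Dlx1*, wildtype had 1830, 1177, 1232 and 1574 normalized counts, Kat5 ko clones had 3426, 1325 and 1705, and Ep400 ko clones had 2256, 2518 and 2152. The Ep400 ko clones lay above all wildtype libraries and within a narrow range, and in Kat5 ko only Kat5/1 was high. The mean of 1453 ± 307 (SD, n = 4) in wildtype compared with 2152 ± 1120 (SD, n = 3) in Kat5 ko and 2309 ± 188 (SD, n = 3) in Ep400 ko. *Dlx1* rose 1.59-fold in Ep400 ko clones (log2-fold change 0.67 ± 0.18 SE, edgeR adjusted p = 0.0427), below the limit for a differentially expressed gene. This call was near the threshold: with 1 library left out, it passed in 1 of 7 fits, the one without wildtype 1, and the log2-fold changes of the 7 fits were 0.58 to 0.79 with adjusted p of 0.0459 to 0.12. Genes of chromosome 2 were shifted upwards by a median log2 value of 0.07 to 0.14 in the Ep400 ko clones, and with this shift taken out per library and chromosome, *Dlx1* gave 0.56 and missed the threshold (edgeR adjusted p = 0.0699), whereas *Prrx2* on the same chromosome still passed (1.01, edgeR adjusted p = 0.0318). In Kat5 ko clones *Dlx1* did not pass (0.54 ± 0.33 SE, edgeR adjusted p = 0.361), and the value was 0.03 without Kat5/1.

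For *Dlx2*, wildtype had 985, 618, 717 and 729 normalized counts, Kat5 ko clones had 1984, 1234 and 1436, and Ep400 ko clones had 1356, 1675 and 849. All Kat5 ko clones lay above all wildtype libraries, and in Ep400 ko Ep400/3 overlapped wildtype. The means were 762 ± 157 (SD, n = 4), 1551 ± 388 (SD, n = 3) and 1293 ± 416 (SD, n = 3). The level in Kat5 ko clones was 2.00 times that of wildtype (log2-fold change 1.00 ± 0.23 SE), which did not pass in edgeR (adjusted p = 0.0761) and passed in DESeq2 (adjusted p = 0.00226). DESeq2 called 1475 genes in this comparison, beside 67 in edgeR. Without Kat5/1, the clone with the highest value, the log2-fold change was 0.78 and passed in edgeR (adjusted p = 0.0394), the only one of 7 fits without 1 library that did (0.78 to 1.15, adjusted p up to 0.19). In that fit 2651 genes passed in all. In Ep400 ko clones the log2-fold change of 0.76 ± 0.25 SE did not pass (edgeR adjusted p = 0.0784), and it passed in 1 of 7 fits without 1 library, at 0.99 without Ep400/3 (edgeR adjusted p = 0.0257), with a range of 0.51 to 0.99 and adjusted p up to 0.236. The knockouts did not differ detectably from each other in *Dlx1* (0.07 ± 0.35 SE) or *Dlx2* (−0.29 ± 0.31 SE).

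The ratio of *Dlx1* to *Dlx2* per kilobase was 0.91 to 1.14 in wildtype libraries and 0.914 in Kat5/1, but 0.568 in Kat5/2 and 0.628 in Kat5/3. In the Ep400 ko clones it was 0.88, 0.796 and 1.34. Over the 10 libraries, the log2 levels of both genes had a Pearson correlation of 0.77, and those of *Prrx1* and *Prrx2* one of 0.68. These are descriptions over libraries that share groups and, for the *Dlx* genes, a chromosome. An antisense gene, *Dlx1as*, overlaps *Dlx1* and had 8 to 47 counts per library, or 0.739% to 2.23% of those of *Dlx1*.

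*Barx1*, a homeobox gene of molar mesenchyme, varied more than any other tested member within wildtype and within Kat5 ko. Wildtype libraries had 255, 362, 1.96 and 148 normalized counts, Kat5 ko clones 757, 14.9 and 23.2, and Ep400 ko clones 261, 127 and 137. Wildtype 3, with 2 reads, was almost devoid of the transcript while wildtype 2 had 333 reads, and Kat5/1 with 730 reads was far above Kat5/2 with 12 and Kat5/3 with 28. The highest library exceeded the lowest 184-fold within wildtype, 50.9-fold within Kat5 ko and 2.06-fold within Ep400 ko. The log2-fold change was 0.45 ± 1.46 SE for Kat5 ko (edgeR adjusted p = 0.882) and −0.13 ± 1.01 SE for Ep400 ko (edgeR adjusted p = 0.943), so that neither direction was determined. Without Kat5/1 the Kat5 ko value was −3.34 (edgeR adjusted p = 0.144). Between the knockouts it was −0.63 ± 1.31 SE (edgeR adjusted p = 0.761) and turned to 3.16 without Kat5/1 (edgeR adjusted p = 0.0271).

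**Figure D3:**
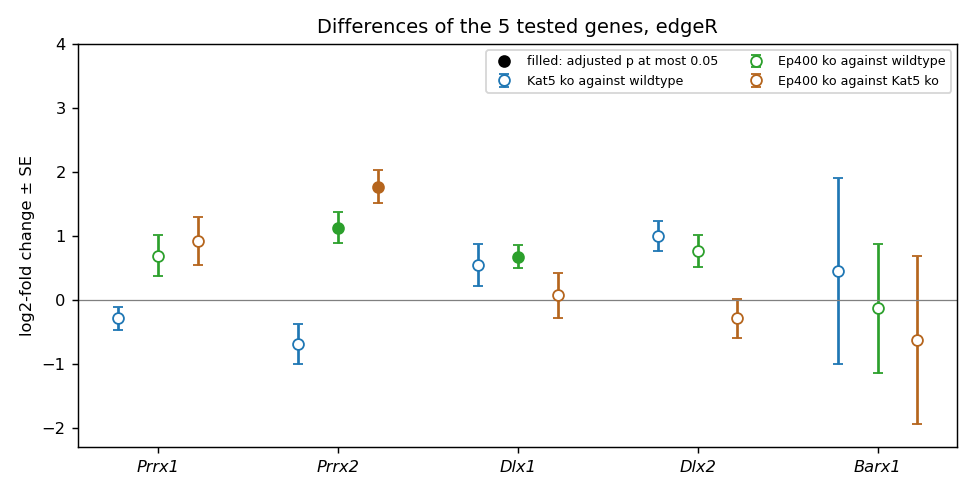
log2-fold changes (vertical axis) with SE from edgeR for the 5 tested genes in the 3 comparisons, filled where the adjusted p was at most 0.05. *Prrx2* and *Dlx1* against wildtype (1.13 and 0.67) and *Prrx2* between the knockouts (1.77) are filled, and *Barx1* has SE of 1.01 to 1.46.

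Over all comparisons, 0 of the 5 tested members passed in Kat5 ko, where 0.499% of 13434 tested genes passed in edgeR. At an unadjusted p of at most 0.05, 1 member (*Dlx2*) was counted against 22.3% of all genes. DESeq2 called that 1 member among 1475 genes in all, beside 67 genes in edgeR. In limma-voom, 0 members and 98 genes passed. *Dlx2* was also the 1 member with every clone above wildtype, as were 9.67% of all genes. In Ep400 ko, 2 of 5 passed, both higher, against 13.9% of 13836 genes in both directions and 8.09% higher, and 1 of 5 met the limits for a differentially expressed gene, against 6.48%. The same 2 had no overlap with wildtype, against 16.1% of all genes with every clone above wildtype. Between the knockouts 1 of 5 passed, higher in Ep400 ko, and met those limits, against 7.32% of 13587 genes passing in both directions, 4.34% higher and 5.51% within the limits. For 2 members, *Prrx1* and *Prrx2*, every Ep400 ko clone was above every Kat5 ko clone, as for 20.5% of all genes. The median log2-fold change of the 5 tested members was 0.45 in Kat5 ko, 0.69 in Ep400 ko and 0.07 between the knockouts, beside 0, 0.04 and 0.01 over all tested genes. The Kat5 ko median is the value of *Barx1* itself and turned to −0.20 without Kat5/1 and to −0.21 in limma-voom. The median between the knockouts was 0.83 without Kat5/1, −0.19 without Kat5/2 and −0.05 without Kat5/3. Both comparisons with wildtype used the same 4 wildtype libraries. The 3 members near 0 are not part of these counts.

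**Figure D4:**
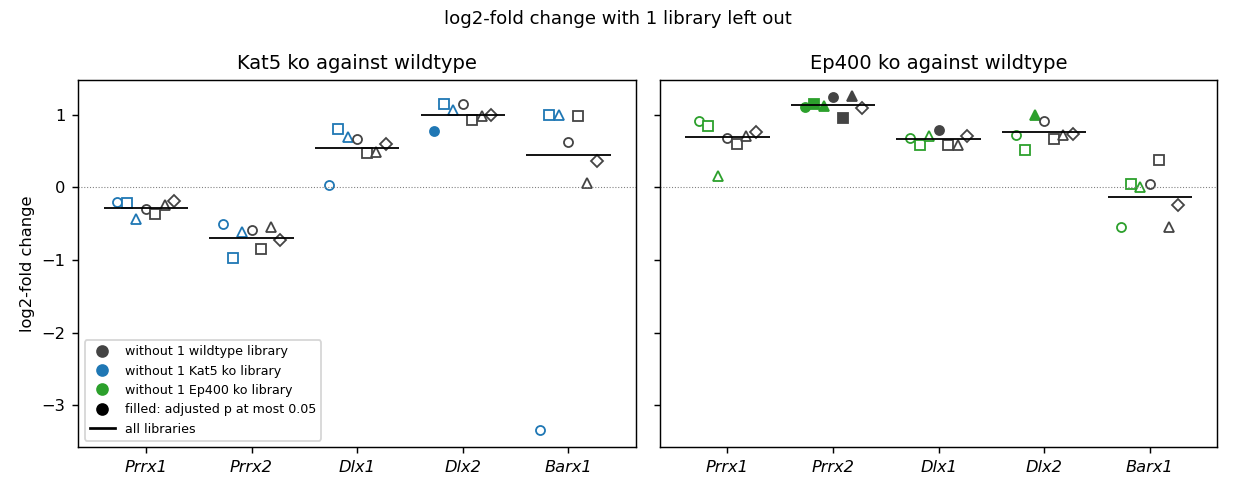
log2-fold changes (vertical axis) of the 5 tested genes against wildtype when 1 library was left out, with the colour and shape of the library removed, filled where the adjusted p was at most 0.05, and a line at the value from all libraries. *Prrx2* in Ep400 ko is filled in 6 of 7 fits and *Dlx1* in 1 of 7, and removal of Kat5/1 moves *Dlx1* to 0.03 and *Barx1* to −3.34.

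The paralogs and other homeobox genes known from the face were followed in the same fits. Of these 28 genes, 8 had at most 3 counts in every library, among them *Six3*, *Six6*, *Dlx3* and *Dlx4*. In Kat5 ko, 15 were tested and 0 passed in edgeR (1 at an unadjusted p of at most 0.05). DESeq2 called 1 of them, *Meox1*, among 1475 genes in all. Leaving out Kat5/1 in edgeR gave 2 calls, *Shox2* and *Lhx8*, both lower, in a fit where 2651 genes passed in all. In Ep400 ko, 18 were tested and 4 passed, all higher: *Dlx5*, *Nkx3-2*, *Lhx8* and *Meis2*. *Dlx5* and *Nkx3-2* entered the test only through their counts in Ep400 ko, and of the 15 genes tested in both knockouts 2 passed in Ep400 ko, or 13.3%, near the 13.9% of all genes. The median log2-fold change of these 15 genes was 0.62 in Ep400 ko, beside 0.04 over all genes, and −0.21 in Kat5 ko, beside 0.

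Of these, *Dlx5*, the ventral arch counterpart of *Dlx1* and *Dlx2*, had 0, 1, 0 and 0 counts in wildtype, 0, 0 and 2 in Kat5 ko and 14, 31 and 46 in Ep400 ko clones. It was thus nearly absent outside the Ep400 ko clones, and its summed level there was 119 times that of wildtype with a 95% counting interval of 20.7 to 4730 (edgeR adjusted p = 0.0056). *Dlx6*, its neighbour, was not tested and had 1, 6 and 39 counts in Ep400 ko clones against 0 to 4 in wildtype and 0 in Kat5 ko. *Nkx3-2*, a jaw joint and cartilage factor, had 0 counts in all wildtype libraries, 0, 0 and 1 in Kat5 ko and 18, 58 and 17 in Ep400 ko clones (edgeR adjusted p = 0.0166). Its summed level in Ep400 ko was 40.4 times a floor of 3 counts over the wildtype group. The 95% counting interval of its ratio to wildtype starts lower, at 32.2. Both genes remained low: per kilobase, *Dlx5* reached a mean of 13.5 normalized counts in Ep400 ko, against 428 for *Dlx1* and 453 for *Dlx2*.

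*Lhx8*, a LIM homeobox gene of oral mesenchyme, had 1070 to 1500 normalized counts in wildtype and 1970 to 3290 in Ep400 ko clones (log2-fold change 1.07 ± 0.20 SE, edgeR adjusted p = 0.013). *Meis2*, a TALE cofactor of cranial neural crest, had 2670 to 3310 and 4050 to 5700 (0.62 ± 0.16 SE, edgeR adjusted p = 0.0387). *Lhx8* passed in all 7 fits that left out 1 library, and *Meis2* in 1 of 7, the one without Ep400/1. *Dlx5* and *Nkx3-2* also passed in all 7. With 0 or 1 reads in each wildtype library, a rise was the only result that these 2 genes could give. *Shox2*, related to the Prrx genes and required in palate mesenchyme, had 681 to 763 normalized counts in wildtype and 913 to 2410 in Ep400 ko, and just missed the threshold (1.06 ± 0.30 SE, edgeR adjusted p = 0.0524). *Six4*, a relative of *Six2*, did not pass in Ep400 ko (−0.37 ± 0.23 SE, edgeR adjusted p = 0.295). *Barx2* had 0 to 4 counts per library. Between the knockouts, 3 of 18 passed (16.7%), all higher in Ep400 ko, against 7.32% of all genes in both directions and 4.34% higher. They were *Dlx5*, *Nkx3-2* and *Msx1*, each in the 2 of 6 fits without Kat5/1 or without Ep400/1. With at most 2 counts in any Kat5 ko clone, *Dlx5* and *Nkx3-2* entered this test only through Ep400 ko. For these 2 genes a higher value in Ep400 ko was the only direction that could be found.

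**Figure D5:**
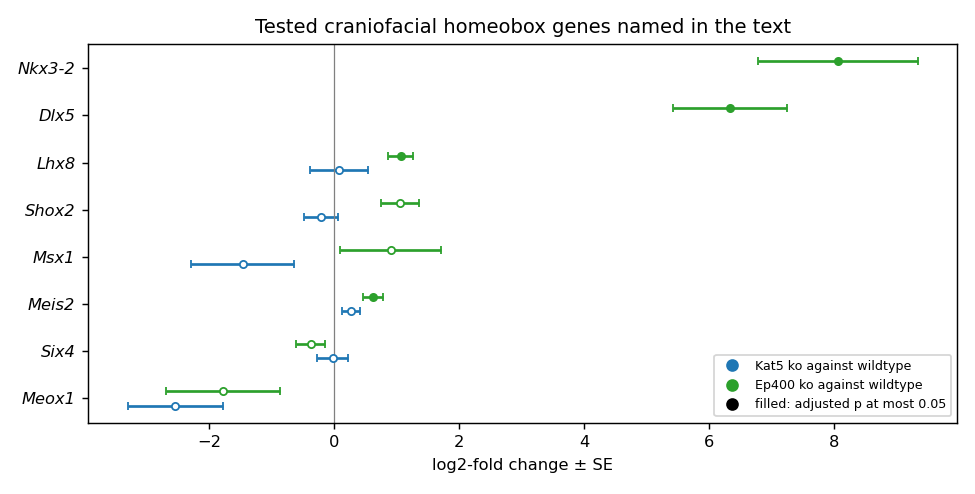
Fitted log2-fold changes with SE (horizontal axis) of the tested craniofacial homeobox genes named here, in Kat5 ko (blue) and Ep400 ko (green) against wildtype, filled where the adjusted p was at most 0.05. The 4 filled values are *Nkx3-2*, *Dlx5*, *Lhx8* and *Meis2* in Ep400 ko, and the fitted sizes for *Nkx3-2* and *Dlx5* depend on the prior count, as wildtype had 0 or 1 reads.

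Among 24 other regulators of mesenchyme, 19 were tested in Kat5 ko and 0 passed in edgeR (1 at an unadjusted p of at most 0.05). DESeq2 called 1 of them, *Foxf1*, among 1475 genes in all. In Ep400 ko, 6 of 20 passed, all higher, where 13.9% of all genes passed and 8.09% were higher. *Pax3* was tested only through its counts in Ep400 ko, and of the 19 genes tested in both knockouts 5 passed (26.3%), with a median of 0.53 in Ep400 ko, beside 0.04 over all genes, and −0.06 in Kat5 ko. *Pax3*, a factor of neural crest and neural tube, rose from 3.26 to 6.87 normalized counts in wildtype to 49.4 to 256 (log2-fold change 5.13 ± 0.64 SE, edgeR adjusted p = 0.00363), and *Eya1*, a transcriptional cofactor, from 3.93 to 71.5 to 124 to 1320 (4.19 ± 0.96 SE, edgeR adjusted p = 0.0246). Both were low in wildtype and higher in every Ep400 ko clone. The others were the tooth mesenchyme factor *Pax9* (1.84), the skeletogenic factor *Foxc2* (1.58), *Foxd1* (1.39) and the early neural crest factor *Tfap2a* (1.37). *Pax3*, for which only a rise could be found, passed in all 7 fits without 1 library. *Foxc2* passed in 6, *Eya1* and *Tfap2a* in 3, and *Foxd1* and *Pax9* in 2. *Hand1* and *Hand2*, distal arch factors, were at 0 in all 10 libraries. Between the knockouts 2 of 20 passed, *Eya1* (6.09 ± 1.41 SE) and *Tfap2a* (1.47 ± 0.30 SE), both higher in Ep400 ko, against 7.32% of all genes in both directions and 4.34% higher. *Eya1* passed in 1 of 6 fits without 1 library, the one without Kat5/1, and *Tfap2a* in 2, without Kat5/1 or without Ep400/1.

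Of 20 genes for signals that act on these factors, 16 were tested in each comparison, with medians of −0.13 in Kat5 ko and 0.11 in Ep400 ko. Those that passed were 6.25% in Kat5 ko, against 0.499% of all genes, and 6.25% in Ep400 ko, against 13.9%. Between the knockouts 18.8% passed, all higher, against 7.32% of all genes in both directions and 4.34% higher. At an unadjusted p of at most 0.05, 7 of the 16 were counted in Kat5 ko, against 22.3% of all genes. In Kat5 ko 1 passed, *Edn1*, the endothelin ligand that sets ventral arch identity upstream of *Dlx5* and *Dlx6*. It had 12.8 to 31.5 normalized counts in wildtype and 106, 237 and 132 in the Kat5 ko clones (log2-fold change 2.90 ± 0.44 SE, edgeR adjusted p = 0.0442), and passed in the 2 of 7 fits without wildtype 2 or without Kat5/1. Its receptor gene *Ednra* had 0 to 4.15 normalized counts in Kat5 ko against 22.6 to 116 in wildtype and did not pass (−4.52 ± 0.88 SE, edgeR adjusted p = 0.065). In Ep400 ko 1 passed, the hedgehog effector *Gli2*, which fell from 69.7 to 147 normalized counts in wildtype to 7.94 to 16.9 (−3.15 ± 0.48 SE, edgeR adjusted p = 0.00652) and did so in all 7 fits. The Kat5 ko clones had 447, 0 and 166 normalized counts of *Gli2*. Between the knockouts *Ednra* (5.70 ± 1.06 SE), *Bmp4* (3.17 ± 0.68 SE) and *Fgfr1* (1.41 ± 0.31 SE) were higher in Ep400 ko. With 1 library left out, *Bmp4* passed in 0 of 6 fits, *Ednra* in 1, without Kat5/1, and *Fgfr1* in 2, without Kat5/1 or without Ep400/1.

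Markers of other cell types moved in some of the same libraries. The 10 neuron markers summed to 3.47 to 6.29 CPM in wildtype, 4.23 to 16.2 in Kat5 ko and 7.81 to 28.4 in Ep400 ko, with 4 or 5 of the 10 at 0 in each library. The 10 bone and cartilage markers summed to 11.7 to 26.9 in wildtype, 4.77 to 63 in Kat5 ko and 34.8 to 43.5 in Ep400 ko, where 2 to 4 of them were at 0. Genes of this list moved in opposite directions in Ep400 ko: *Dmp1* had a mean of 2.32 CPM in wildtype and 39 in Ep400 ko (log2-fold change 4.07, edgeR adjusted p = 0.0127), and the cartilage gene *Acan* 18.2 and 0.0729 (−7.83, edgeR adjusted p = 0.00318). The 10 glia and melanocyte markers summed to 12 to 21.7, 5.14 to 8.57 and 12.2 to 26.2, with *Mbp* lower in Ep400 ko (−3.26, edgeR adjusted p = 0.00885), and the 8 epithelial markers to 1.79 to 4.93, 0.749 to 0.881 and 0.68 to 1.52 CPM. The part of these cell types in the values of the homeobox genes was not tested.

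The genes with the most similar pattern were taken from 10928 genes with a mean normalized count of at least 100, by Pearson correlation of log2 levels over the 10 libraries. For *Prrx2* these were *Kazald1* (0.98), *Thtpa* (0.962) and *Clic5* (0.958), and for *Prrx1* they were *Tef* (0.979), *Ganc* (0.959) and *Kctd18* (0.947). For *Dlx1* they were *Arhgap1* (0.952), *Parva* (0.948) and 1600002K03Rik (0.94), and for *Dlx2* they were *Klhl21* (0.927), *Wbp4* (0.921) and *Pcdh9* (0.895). *Barx1* was most like *Sirpa* (0.968), *Fgd4* (0.92) and *Mdfic* (0.919). No gene was shared between these lists. *Kctd18* lies on chromosome 1 like *Prrx1*, and *Arhgap1* on chromosome 2 like *Dlx1*. All other genes of these lists lie on a different chromosome from their member.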

How the data were processed

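RNA-seq of O9-1 cells was examined in 10 libraries (4 wildtype, 3 Kat5 ko, 3 Ep400 ko). Per the labels and methods, the authors made stranded poly-A libraries and sequenced paired reads, and the submitters' processing notes name bcl2fastq 2.20, STAR 2.7.3, DESeq2 1.36.0, R 4.2.1 and the build mm10. The authors deposited unnormalized whole-number counts of reads for every gene. How reads were counted (program, strand, annotation) is not given in the sources used here. The normalized tables of the authors were not used.

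For each pair of groups, filterByExpr removed low genes, TMM factors scaled the libraries, and a quasi-likelihood F-test (edgeR 4.0.16 in R 4.3.3) gave p-values that were adjusted after Benjamini and Hochberg over all tested genes. A gene passed at an adjusted p of at most 0.05. SE is the log2-fold change divided by the root of the F statistic. Normalized counts are counts over the effective library size, times its mean over 10 libraries. Exon lengths are unions of GENCODE M21 exons (42462 of 43346 gene IDs matched). Totals were 30968945 to 48301792 counts per library, and floors of 3 counts and the 95% interval (exact binomial) cover counting error only. Alternatives were DESeq2 1.42.0, limma-voom (3.58.1), other scalings, no filter, 1 fit of all libraries, a replicate block, chromosome offsets (median shifts), each library left out and, added after values had been seen, robust dispersion estimates.

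Replicates were not duplicates of each other (chi-square of 26.1 to 239 for each degree of freedom). The labels call wildtype samples biological replicates, and p-values measure the spread between these libraries and clones only. On simulated data, 162 of 200 changed genes (absolute log2 change 2) were recovered with 9 false calls among 13434 genes for Kat5 ko, and 173 with 15 among 13836 for Ep400 ko. The fitted log2-fold changes of the tested members against wildtype were smaller, at most 1.13. Recovery at such sizes was not tested. The members and lists were chosen with earlier results of these data known. Named are all members, close paralogs, up to 6 list genes that passed per list and comparison, and the 3 most similar genes per member. Genes named beyond this (cell type markers, silent or overlapping genes, *Ednra* and *Gli2* in Kat5 ko, *Dlx6*, *Meox1*, *Foxf1*, and *Shox2* and *Lhx8* without Kat5/1) were chosen after their values were seen. Some paralogs are not reported here.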

Additional observations from a re-analysis of the deposited data

Results flagged for a closer look

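*Prrx2* was set apart because its change differed between the knockouts in a direct test: the log2 difference of Ep400 ko to Kat5 ko clones was 1.77 (edgeR adjusted p = 0.0248). Its Ep400 ko clones (4724 to 5086 normalized counts) lay above, and 2 of the 3 Kat5 ko clones (1018 and 1296) below, the whole wildtype range of 1356 to 2833. None of the 5 tested members had a single wildtype library outside Dixon's limit for 4 samples. That limit is wide: *Barx1* stayed inside it although wildtype 3 had 2 reads and the other wildtype libraries 178 to 333. The check therefore does not show that every wildtype library was alike.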

How the results depend on the processing

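Of the alternative fits of single members, 203 kept direction and side of the threshold, 15 became weaker, 4 stronger and 13 turned sign. Most of these results had not passed in the main fit, where keeping the side of the threshold takes little. The calls themselves held less often. With 1 library left out, *Prrx2* in Ep400 ko passed in 6 of 7 fits, *Dlx1* in 1 of 7, and *Prrx2* between the knockouts in 3 of 6, though in all 9 other alternatives. *Prrx2* in Ep400 ko gave 1.01 to 1.19 over 9 alternatives and passed in 8 of them, and *Dlx1* gave 0.56 to 0.73 and passed in 5, missing the threshold with no filter (edgeR adjusted p = 0.0607), in 1 fit of all libraries (0.166), with the replicate block (0.122) and with chromosome offsets (0.0699). The number of members that passed in Ep400 ko was 1 with no filter, 1 in 1 fit of all libraries and 1 with chromosome offsets, and 0 to 2 with 1 library left out. In Kat5 ko, DESeq2 called 1 member, 1 other homeobox gene and 1 mesenchyme regulator among 1475 genes in all, beside 67 genes in edgeR. Fits without 1 library called 0 to 1, 0 to 2 and 0 to 1 of these lists. In Ep400 ko, DESeq2 called 7 other homeobox genes, and fits without 1 library gave 3 to 6 of them and 1 to 8 regulators. Between the knockouts such fits gave 0 to 2 members. The shares of all genes that passed in these fits are not given here. The counts therefore show only how far the calls moved with the processing. DESeq2 also called *Dlx2* in Ep400 ko (adjusted p = 0.0437).

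Libraries of different groups with the same replicate number had residual correlations of −0.096 to 0.223. Pairs with different numbers were not compared with them, so whether the numbers pair libraries was not tested. With the replicate block, which leaves wildtype 4 without weight, Ep400 ko gave 0 members, 0 other homeobox genes and 1 regulator, with *Prrx2* at 1.16 (edgeR adjusted p = 0.0804), and 170 genes passed in all instead of 1917. Between the knockouts *Prrx2* still passed with the block (1.82).

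*Barx1* turned sign in limma-voom, at −0.21 for Kat5 ko, 1.19 for Ep400 ko and 1.35 between the knockouts, and with the replicate block at 0.70 and 1.46 for the last 2. Without 1 library it ranged from −3.34 to 1.00, from −0.55 to 0.38 and from −1.19 to 3.16. *Dlx1* between the knockouts ranged from −0.19 to 0.59, being negative without Kat5/2 (−0.19) or Kat5/3 (−0.05). The cause was not tested. Depth limits *Alx1*, *Alx4* and *Six2*, and the spread between libraries of 1 group limits the other members.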
